A study of Mus musculus with 16 samples.

Results

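The Nrf2 antioxidant pathway was followed through 10 of the 24984 genes counted in every library, namely *Nfe2l2* and *Keap1*, which encode the transcription factor and its sensor, and the targets *Nqo1*, *Hmox1*, *Gclc*, *Gclm*, *Txnrd1*, *Srxn1*, *Slc7a11* and *G6pdx*. They are called the members here and were taken by symbol as known genes of the pathway. The libraries were made from kidney and liver of wild-type female C57BL/6 mice that had received, by tail vein, AAV8, an adeno-associated virus vector, with a hairpin directed at *Fos* (shFos) or with a non-targeting hairpin (NT, called shNT in the labels). All 4 groups (NT kidney, shFos kidney, NT liver and shFos liver) were therefore aged, AAV8-injected animals, and each held 4 libraries of whole-tissue RNA. The labels give an age of 24 months. Per the methods, that was the age at injection, and the organs were taken 3 months later. No uninjected or young mice were analysed here, the vector was not restricted to 1 cell type, and the replicate numbers in the labels name no animal, so p-values measure the spread between these libraries. The question was whether these genes differed with *Fos* knockdown in either organ, and how they differed between the organs.

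Nrf2, the product of *Nfe2l2*, is a basic leucine zipper transcription factor that binds antioxidant response elements (ARE) as a heterodimer with a small MAF protein. KEAP1 holds it in the cytoplasm and presents it to the CUL3 ubiquitin ligase, and oxidants or electrophiles that modify KEAP1 release Nrf2 from degradation, so that much of its control acts on protein rather than on mRNA. Its targets supply glutathione, thioredoxin and NADPH, detoxify quinones and break down heme. FOS belongs to the AP-1 family of leucine zipper factors, whose binding motif can lie inside an ARE. In liver the pathway is known for protection of hepatocytes from reactive drugs, and in kidney for protection of tubule cells from oxidants.

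Promoter windows from RefSeq (GRCm38.p6, from 250 bases before to 50 after each start, with the same coordinates as mm10) were searched on both strands for the ARE core, written TGACNNNGC or TGAGNNNGC, and for the AP-1 motif TGACTCA, whose reverse complement is TGAGTCA. Of the 10 genes, 8 had at least 1 window, and *Hmox1* and *Gclc* had none. An ARE core was found in 6 of these 8 genes (*Nfe2l2*, *Gclm*, *Txnrd1*, *Srxn1*, *Slc7a11* and *G6pdx*). Counted by window, it was in 6 of their 10 windows and in 27.8% of all 32851, so a core alone is a common string of letters. The AP-1 motif was found in 1 of the 8 genes, *Srxn1* (1 of the 10 windows), and in 5.2% of all windows. An AP-1 motif overlapping an ARE core stood in 0.822% of all windows. The stretches around the matches are shown because they are the places where a leucine zipper factor of either family could read these genes. Not shown are that of *G6pdx*, which lies within the gene, and an ARE core of *Srxn1* at bases 29 to 37 after the start. Capitals mark the motif matches, each stretch is written 5′ to 3′ on the strand of the gene, and all lie before the annotated start of the gene except that of *Txnrd1*, which precedes the second of its 3 starts and lies within the gene.
*Srxn1* (chr2:152105351-152105502, + strand): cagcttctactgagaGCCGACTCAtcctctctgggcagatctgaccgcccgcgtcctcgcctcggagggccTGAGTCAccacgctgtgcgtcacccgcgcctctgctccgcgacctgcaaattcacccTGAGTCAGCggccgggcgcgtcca
*Gclm* (chr3:122245408-122245446, + strand): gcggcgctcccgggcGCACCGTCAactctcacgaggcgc
*Txnrd1* (chr10:82859099-82859137, + strand): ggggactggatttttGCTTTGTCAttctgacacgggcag
*Nfe2l2* (chr2:75704880-75704913, − strand): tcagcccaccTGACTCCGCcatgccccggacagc
*Slc7a11* (chr3:50443687-50443725, − strand): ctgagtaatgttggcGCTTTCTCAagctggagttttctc

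In the *Srxn1* stretch, the first capitals are an ARE core on the opposite strand, the next are an AP-1 motif that starts at base −102, and the last, TGAGTCAGC, is an ARE core that starts at base −45 and whose first letters are themselves an AP-1 motif. The match is a description of letters, and binding was not measured in these libraries. *Srxn1*, which encodes sulfiredoxin, the enzyme that repairs over-oxidised peroxiredoxins, lies on chromosome 2 of mm10 from 152105516 to 152111376.

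Depth was 14194543 to 15534665 counted reads in kidney libraries and 16652150 to 18300277 in liver libraries. Where a gene had no read, its true level could still be as high as 3 counts, which is 0.164 to 0.211 CPM (counts scaled to the library total) and reflects counting error alone. *Fos* itself was measured at 6.71, 5.26, 4.23 and 5.29 CPM in NT kidneys and at 2.57, 4.12, 3.93 and 2.3 CPM in shFos kidneys, without overlap (exact two-sided permutation p = 0.0286, the smallest that 4 against 4 can give). Its log2 fold change was −0.73 ± 0.25 (SE) with an adjusted p of 0.0955 by edgeR, and 0.0427 by DESeq2 (range over the alternatives 0.0427 to 0.23). In liver *Fos* stood at 1.12, 2.37, 3.7 and 2.86 CPM against 1.63, 1.5, 2.76 and 1.38 CPM, the groups overlapped, and the adjusted p was 0.778. Hepatocyte markers summed to 66000 to 195000 CPM in the livers and to at most 1030 CPM in the kidneys, and proximal tubule markers to 5070 to 36100 CPM in the kidneys and to at most 5.28 CPM in the livers, as the tissue labels say.

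NT replicate 4 stood apart in both organs and touches several results below. It was the highest or lowest of the 8 libraries of its tissue for 51% of genes in kidney and 52.5% in liver, against 12.1% to 37.3% and 14.2% to 29.5% in the other libraries. In kidney it had the lowest proximal tubule sum (5070 CPM, other NT kidneys 13900 to 15800) and the highest hepatocyte sum. Its neutrophil sum was the highest there as well (22.5 CPM, other NT kidneys 2.5 to 2.87). Its macrophage sum was the lowest (260 CPM, other NT kidneys 484 to 726). In liver it had the lowest hepatocyte sum (66000 CPM, other NT livers 123000 to 195000) and the highest neutrophil sum (110 CPM, other NT livers 12.1 to 33.6). The cholangiocyte sum of that liver was also the highest (34.4 CPM, other NT livers 5.99 to 7.5). In bulk tissue, fewer cells of a type and less RNA per cell cannot be told apart. For the members, values without this library are given wherever it turned a direction, an order or a call.

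Levels were first ordered within NT tissue as RPKM (reads scaled to exon length and library total, with TMM factors over both tissues). In NT kidney the order was *Gclc* (87.3 ± 47.9 RPKM, SD, n = 4), *Nqo1* (43.5 ± 30.9), *Gclm* (29 ± 2.59), *Nfe2l2* (28 ± 1.93), *Srxn1* (25.6 ± 1.28), *Txnrd1* (17 ± 1.6), *G6pdx* (14 ± 2.18), *Hmox1* (11.6 ± 2.28), *Keap1* (8.68 ± 0.337) and *Slc7a11* (0.0209 ± 0.0158). Among neighbours in that order, the libraries of *Srxn1* and *Txnrd1*, of *Hmox1* and *Keap1*, and of *Keap1* and *Slc7a11* did not overlap, and all other neighbours did. The place of *Nqo1* rested on NT replicate 4 (89.5 RPKM). Without that library *Gclm* (30.3 ± 0.784 RPKM, SD, n = 3) stood above *Nqo1* (28.2 ± 4.34), with overlap, and *Gclc* (63.4 ± 2.46) was apart from both. In NT liver the order was *Gclc* (107 ± 65.8 RPKM), *Hmox1* (47.9 ± 23.6), *Nfe2l2* (32.3 ± 10.5), *Gclm* (31.3 ± 2.25), *Srxn1* (26.6 ± 3.68), *Txnrd1* (26.3 ± 1.93), *Keap1* (21.6 ± 2.71), *Nqo1* (17 ± 4.09), *G6pdx* (5.27 ± 2.35) and *Slc7a11* (0.0111 ± 0.00698). Here *Txnrd1* and *Keap1*, *Nqo1* and *G6pdx*, and *G6pdx* and *Slc7a11* were the only neighbours without overlap. Without NT replicate 4 *Gclc* (133 ± 49.2 RPKM, SD, n = 3) was also apart from *Hmox1* (46.8 ± 28.8), and *Txnrd1* (26.9 ± 1.76) stood above *Srxn1* (25.5 ± 3.64), with overlap. *Gclc*, the catalytic subunit of the rate-limiting enzyme of glutathione synthesis, thus had the highest mean per length in both organs, and *Slc7a11*, the cystine transporter, was near the detection limit in both.

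**Figure D1:**
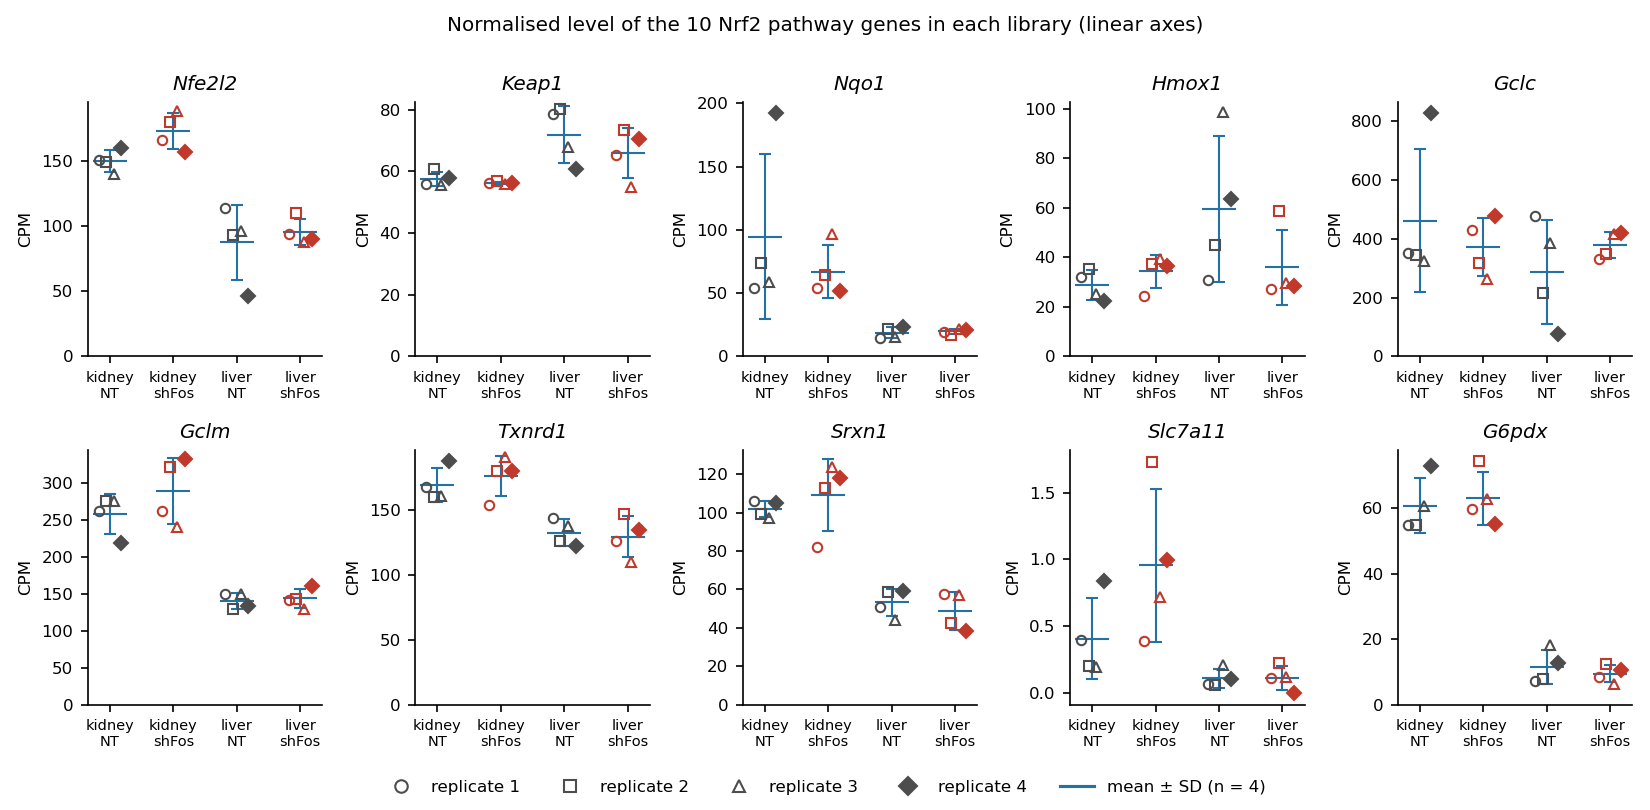
CPM (TMM-normalised within each tissue, linear axes from 0) of each of the 10 genes in the 4 groups, with 1 symbol per replicate number and the blue bar for mean ± SD, n = 4. The filled grey diamond of NT replicate 4 lies far above the other NT kidneys for Nqo1 (192 CPM) and Gclc (827 CPM) and below the other NT livers for Gclc (77.3 CPM) and Nfe2l2 (46.5 CPM).

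In kidney, none of the members passed the test for *Fos* knockdown. Of the 9 that could be tested (*Slc7a11* was removed by the filter on low counts), 0 had an adjusted p under 0.05 by edgeR, as had 0 of all 14892 genes (0%), and DESeq2 also called 0 members, against 19.6% of the genes it tested. At an unadjusted p under 0.05 there was 1 member, *Nfe2l2*, where 31.9% of all genes (4747) had such a p. In 0 members were the groups free of overlap, against 17.2% of all genes. The shares among the members were thus below those of all genes, as a description of 9 genes only. The fold change was above 0 in 6 and below 0 in 3 of them, with a median log2 fold change of 0.056 (all genes 0.00225), but with library size alone as scaling, which moved the median of all genes to −0.0937, it was above 0 in 3 and below 0 in 6.

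*Nfe2l2* (chromosome 2, 75675513 to 75704641) was measured at 151, 149, 140 and 160 CPM in NT kidneys and at 166, 180, 188 and 157 CPM in shFos kidneys. The shFos mean was 1.15 times the NT mean, and the groups overlapped through 1 library on each side, NT replicate 4 and shFos replicate 4. The log2 fold change was 0.20 ± 0.09 (SE), with an edgeR p of 0.0439 that was 0.147 after adjustment and an exact permutation p of 0.0571. *Keap1* (chromosome 9, 21229730 to 21239361, overlapping the antisense gene *Gm16754*, whose reads unstranded counting cannot separate) varied little. Its level was 55.6 to 60.7 CPM in NT kidneys and 55.9 to 56.9 CPM in shFos kidneys, a log2 difference of −0.03 with a 95% interval of −0.18 to 0.12.

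*Nqo1* encodes the quinone reductase that is the customary readout of Nrf2 activity, and lies on chromosome 8 from 107388225 to 107403206. It stood at 54.3, 73.6, 58.9 and 192 CPM in NT kidneys and at 54.1, 64.6, 97.1 and 51.3 CPM in shFos kidneys. A single NT library, replicate 4, was 3.08 times the mean of the other NT kidneys, and the remaining NT values lay within the shFos range. The log2 fold change of −0.50 ± 0.41 (SE, adjusted p = 0.427) accordingly turned to 0.10 without that library.

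The glutathione genes were led in spread by *Gclc* (chromosome 9, 77754535 to 77794485). NT kidneys gave 351, 344, 324 and 827 CPM and shFos kidneys 431, 317, 264 and 478 CPM. Again NT replicate 4 was apart, at 2.43 times the mean of the others, and the log2 fold change went from −0.31 ± 0.33 (SE, adjusted p = 0.547) to 0.13 without it. *Gclm* (chromosome 3, 122245557 to 122270732), the modifier subunit that raises the activity of GCLC, moved the other way in that library. It had 262, 276, 275 and 219 CPM in NT kidneys and 262, 322, 240 and 332 CPM in shFos kidneys, with a log2 fold change of 0.16 ± 0.13 (SE, adjusted p = 0.422). The 2 subunits of 1 enzyme therefore lay on opposite sides of the other NT kidneys in replicate 4.

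*Slc7a11*, which imports cystine for glutathione synthesis (chromosome 3, 49892526 to 50443614), had 6, 3, 3 and 13 counts in NT kidneys and 6, 26, 10 and 13 counts in shFos kidneys. These are 0.394, 0.202, 0.195 and 0.838 CPM against 0.386, 1.73, 0.715 and 0.998 CPM. The mean of the shFos kidneys was 2.35 times that of the NT kidneys, but the groups overlapped and the exact permutation p was 0.143. With no filter on low counts, edgeR gave a log2 fold change of 1.23 ± 0.59 (SE, adjusted p = 0.226). In the livers it had 0 to 4 counts per library, at or near the floor in both groups (exact permutation p = 0.914).

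For the members of the thioredoxin system, *Txnrd1* and *Srxn1*, the groups overlapped in kidney. *Txnrd1* (chromosome 10, 82833951 to 82897712), the cytosolic thioredoxin reductase, was at 168, 160, 161 and 188 CPM in NT and 154, 180, 191 and 180 CPM in shFos kidneys (log2 fold change 0.06, 95% interval −0.16 to 0.27). *Srxn1*, the member whose promoter holds the combined motif printed above, was at 106, 99.5, 97.2 and 105 CPM in NT and 81.9, 113, 124 and 118 CPM in shFos kidneys. Of the shFos kidneys 3 lay above every NT kidney and 1, replicate 1, lay below every one, and the log2 fold change was 0.10 ± 0.12 (SE, adjusted p = 0.61). Without shFos replicate 1 it was 0.17, the groups did not overlap, and the exact permutation p was 0.0286, the smallest it can give here, with an adjusted p of 0.101 by edgeR. Each library was left out in turn, and this one is named after its values were seen. Without it edgeR called 27.5% of all genes, so no conclusion is drawn from that fit. *Txnrd1* and *Srxn1* turned to a difference below 0 with library size alone as scaling (−0.04 and −0.01).

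*Hmox1* (chromosome 8, 75093621 to 75100589) encodes heme oxygenase 1, which opens the heme ring and is abundant in macrophages that recycle red blood cells. NT kidneys had 32.2, 35.2, 25 and 22.2 CPM and shFos kidneys 24.5, 37.2, 39.4 and 36.6 CPM, a log2 fold change of 0.27 ± 0.19 (SE, adjusted p = 0.355). Of the shFos kidneys 3 lay above every NT kidney and replicate 1 lay among them, and without that library the groups did not overlap (1.32 times the NT mean, exact permutation p = 0.0571). As for *Srxn1*, that library is named after its values were seen. Without NT replicate 4, the lowest NT kidney, the log2 fold change was 0.16. *G6pdx* (chromosome X, 74409483 to 74429194, overlapping *Ikbkg* on the other strand) encodes glucose-6-phosphate dehydrogenase, the entry enzyme of the pentose phosphate pathway and a source of NADPH. It had 54.8, 54.9, 60.6 and 72.7 CPM in NT and 59.7, 74.2, 62.6 and 55.1 CPM in shFos kidneys (log2 fold change 0.05, 95% interval −0.23 to 0.33). For *G6pdx* the groups overlapped over most of their range.

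**Figure D2:**
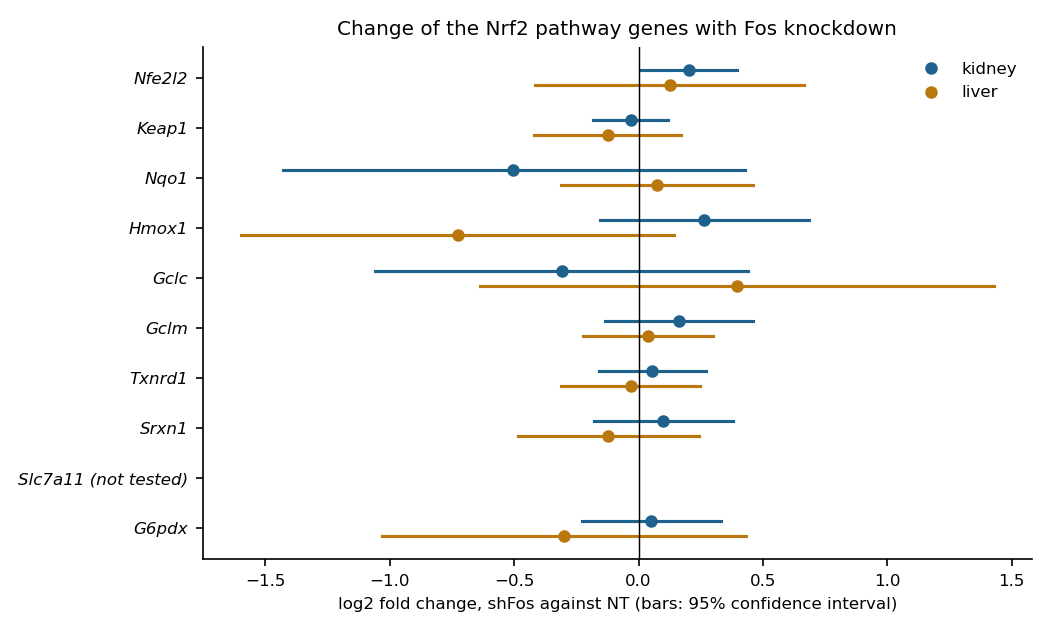
Log2 fold change of shFos against NT (x axis, edgeR) for each member in kidney (blue) and liver (orange), with 95% confidence intervals from 4 libraries per group. All intervals but that of Nfe2l2 in kidney (0.01 to 0.40) include 0, and the widest are those of Gclc and Hmox1 in liver and Nqo1 in kidney.

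In liver, too, no member passed the test. By edgeR 0 of 9 tested members and 0 of 13144 genes (0%) had an adjusted p under 0.05, and DESeq2 called 0 members and 0.304% of genes. At an unadjusted p under 0.05 there were 0 members against 6.74% of all genes, and 0 members were free of overlap between the groups against 4.31%. The fold change was above 0 in 4 and below 0 in 5 members, with a median of −0.03 on the log2 scale (all genes −0.01).

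*Hmox1* had the most negative fold change among the members. NT livers were at 30.8, 45.2, 98.8 and 63.4 CPM and shFos livers at 27.4, 58.7, 29.5 and 28.4 CPM. Of the shFos livers 3 lay below every NT liver and 1, replicate 2, lay between NT replicates 2 and 4. The mean ratio was 0.604 and the log2 fold change −0.73 ± 0.38 (SE), with a 95% interval of −1.60 to 0.14, an adjusted p of 0.737 and an exact permutation p of 0.171. It was −0.37 without NT replicate 3 and −1.07 without shFos replicate 2.

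Macrophage markers differed between the same livers. The 12 markers (*Adgre1*, *Cd68*, *Clec4f*, *Marco* and others) summed to 363, 874, 1920 and 949 CPM in NT livers and to 684, 846, 457 and 541 CPM in shFos livers. All 12 had a fold change below 0 in shFos livers with a median of −0.72 on the log2 scale, 0 of them at an unadjusted p under 0.05, and without NT replicate 3 the count was 8 of 12 and the median −0.15. Across the 8 livers the log2 levels of *Hmox1* and of the marker sum had Pearson's r = 0.892 (exact two-sided permutation p = 0.0031, 0.0558 after adjustment over 18 relations) and Spearman's rho = 0.738 (exact permutation p = 0.0458, adjusted 0.346). With NT replicates 1 and 3 left out, r was 0.839. For *G6pdx* r was 0.834 (exact permutation p = 0.0106, adjusted 0.0958) and rho 0.81 (exact permutation p = 0.0218, adjusted 0.346), and r was 0.604 without those libraries. No relation passed after adjustment, and the part of macrophage RNA in the levels of *Hmox1* and *G6pdx* was not tested.

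**Figure D3:**
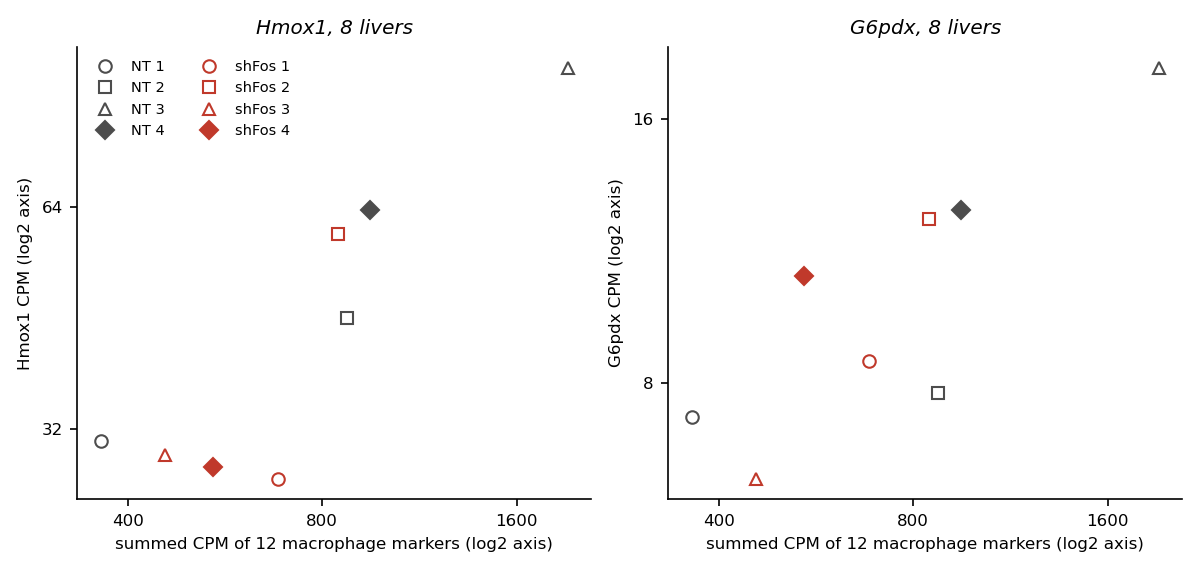
Hmox1 (left) and G6pdx (right) CPM against the summed CPM of 12 macrophage markers in the 8 livers, all on log2 axes, with NT libraries in grey and shFos in red. NT replicate 3 lies at the upper right of both panels (1920 CPM of markers, 98.8 CPM of Hmox1 and 18.3 CPM of G6pdx), and the other libraries spread below it, with r = 0.892 for Hmox1 and 0.834 for G6pdx over all 8.

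*G6pdx* stood at 7.32, 7.79, 18.3 and 12.6 CPM in NT livers and at 8.47, 12.3, 6.22 and 10.6 CPM in shFos livers. The difference of −0.30 ± 0.32 on the log2 scale (SE, adjusted p = 0.83) rested on NT replicate 3 and was 0.02 without it. *Gclc* was at 476, 214, 384 and 77.3 CPM in NT livers, a 4-library spread that covered every shFos value (332, 347, 416 and 420 CPM). Its log2 fold change was 0.40 ± 0.46 (SE, adjusted p = 0.837), and 0.07 without NT replicate 4. The shFos livers were much closer together than the NT livers for this gene, with SDs of 46 and 177 CPM.

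*Nfe2l2* was at 114, 93.1, 96 and 46.5 CPM in NT livers and at 93.9, 110, 87.5 and 89.7 CPM in shFos livers. The log2 fold change of 0.13 ± 0.24 (SE, adjusted p = 0.912) became −0.10 without NT replicate 4, the lowest library. *Keap1* was at 78.8, 80.2, 68 and 60.8 CPM against 65.5, 73.3, 54.9 and 70.4 CPM (−0.12 on the log2 scale, 95% interval −0.42 to 0.17). Neither the factor nor its sensor was separated by treatment.

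*Nqo1* was low and even in liver, at 14.5, 21.9, 15.3 and 23.1 CPM in NT and 19, 17.2, 21.8 and 20.9 CPM in shFos livers (log2 fold change 0.07, 95% interval −0.31 to 0.46). *Gclm*, *Txnrd1* and *Srxn1* ranged from 129 to 161, from 110 to 147 and from 38.3 to 59.4 CPM over the 8 livers, with log2 fold changes of 0.04, −0.03 and −0.12. For these genes the intervals bound the difference at less than 0.5 on the log2 scale in either direction, which is a limit on its size and not evidence of equality.

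NT replicate 4 departed from the other NT libraries in different members in the 2 organs. In kidney it lay outside all 7 other libraries upward for *Nqo1* and *Gclc* and downward for *Hmox1* (0.722 times the mean of the other NT kidneys) and *Gclm* (0.809 times). In liver it lay outside downward for *Gclc* (0.216 times) and *Nfe2l2* (0.461 times) and upward for *Nqo1* (1.34 times) and *Srxn1* (1.16 times). *Gclc* was thus 2.43 times the other NT libraries in kidney and 0.216 times in liver under the same replicate number. Among all genes this library was the highest or lowest of its tissue for 51% in kidney and 52.5% in liver. Such departures are therefore not particular to the members. Without this library the kidney log2 fold changes of *Gclm*, *Txnrd1* and *G6pdx* were 0.09, 0.11 and 0.15. In liver those of *Keap1*, *Nqo1*, *Gclm*, *Txnrd1* and *Srxn1* were −0.21, 0.18, 0.00119, −0.08 and −0.08. No adjusted p of a member passed without it in either organ. Whether these departures come from the marker shifts given above was not tested.

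**Figure D4:**
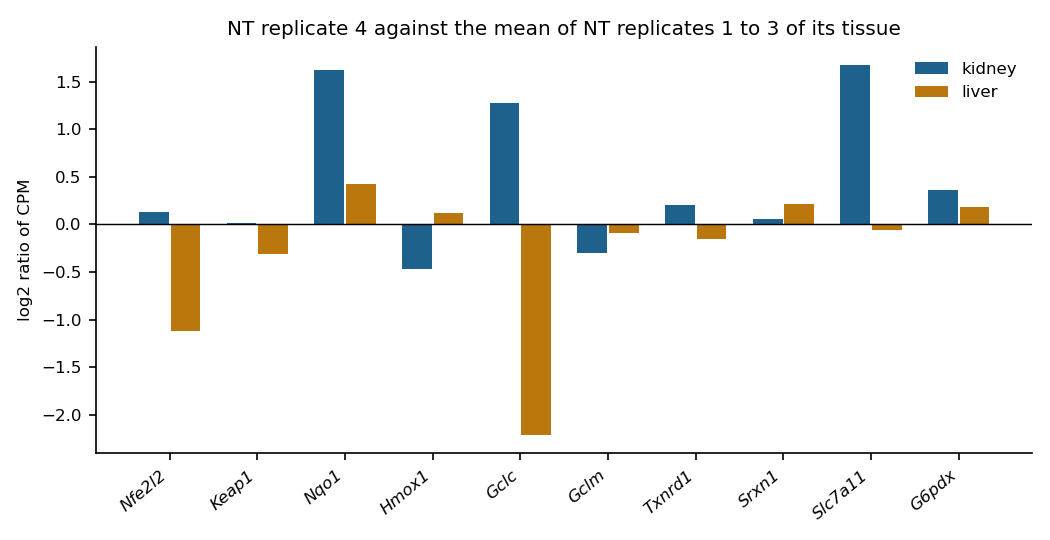
Log2 ratio of NT replicate 4 to the mean CPM of NT replicates 1 to 3 for each member, in kidney (blue) and liver (orange). The bars of Gclc point in opposite directions (1.28 in kidney, −2.21 in liver), and the bars of Slc7a11 rest on at most 13 counts per library.

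Whether the response differed between the organs was read from a joint fit of the 16 libraries. By edgeR 0 of 10 members and 0 of 15421 genes (0%) had an adjusted p under 0.05, and DESeq2 called 0 members and 2.93% of genes. At an unadjusted p under 0.05 there was 1 member, *Hmox1*, against 16.1% of all genes. The *Hmox1* response was higher in kidney than in liver by 0.98 ± 0.45 on the log2 scale (SE, 95% interval 0.02 to 1.93), with an adjusted p of 0.303 by edgeR. It was 0.62 without liver NT replicate 3 and 1.32 without liver shFos replicate 2. For *Nqo1* the difference of response was −0.61 ± 0.49, which was 0.05 without kidney NT replicate 4, and for *Gclc* −0.73 ± 0.61, which was 0.07 without NT replicate 4 of both organs.

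The NT kidneys and NT livers differed from each other in part of the pathway. Of the 10 members, 5 had an adjusted p under 0.05, where 64.7% of all genes did. These were 2 higher in NT kidney (34.4% of all genes) and 3 lower (30.2%). *Nqo1* was higher in NT kidney by 1.36 ± 0.35 (log2, SE, adjusted p = 0.00307) and *G6pdx* by 1.40 ± 0.26 (adjusted p = 2e-04). *Hmox1* was lower in NT kidney by a log2 difference of −2.05 ± 0.33 (adjusted p = 4.79e-05), *Keap1* by −1.31 ± 0.11 (adjusted p = 1.99e-08) and *Txnrd1* by −0.63 ± 0.11 (adjusted p = 0.000109). *Nqo1* still differed without kidney NT replicate 4, at 0.74. The macrophage markers, too, were lower in NT kidney in 12 of 12 (11 past the test, median −2.67), or 11 of 12 with library size alone. The list includes genes of Kupffer cells, the macrophages of the liver, and the median rests in part on them. The markers ran from *Csf1r* (−0.59, adjusted p = 0.207 by edgeR), *Adgre1* (−1.51) and *Cd68* (−1.55) to *Clec4f* (−11.65). Their part in the *Hmox1* difference was not tested.

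These directions depend on how the organs are put on 1 scale, because the 20 most abundant genes held 25.2% to 31.5% of counts in liver and 11.1% to 13.3% in kidney. TMM factors were 0.626 to 0.783 in liver and 1.32 to 1.48 in kidney. With library size alone the median of all genes moved from 0.05 to 1.10, *Txnrd1* turned to 0.41 (adjusted p = 0.00268, range over all alternatives 1.45e-08 to 0.00268), and 9 members were called. The number of all genes called moved as well, from 9976 in the main fit to between 9489 and 13094 over the alternatives. This range covers all alternatives and not library size alone, so the count of members is a description only. With library size alone *Nqo1* (2.39), *G6pdx* (2.41), *Keap1* (−0.26) and *Hmox1* (−1.05) kept their direction. Relative to the median of all genes, *Txnrd1* was −0.69 and −0.68 under the 2 scalings, so its place among the genes was alike and only the zero point moved.

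**Figure D5:**
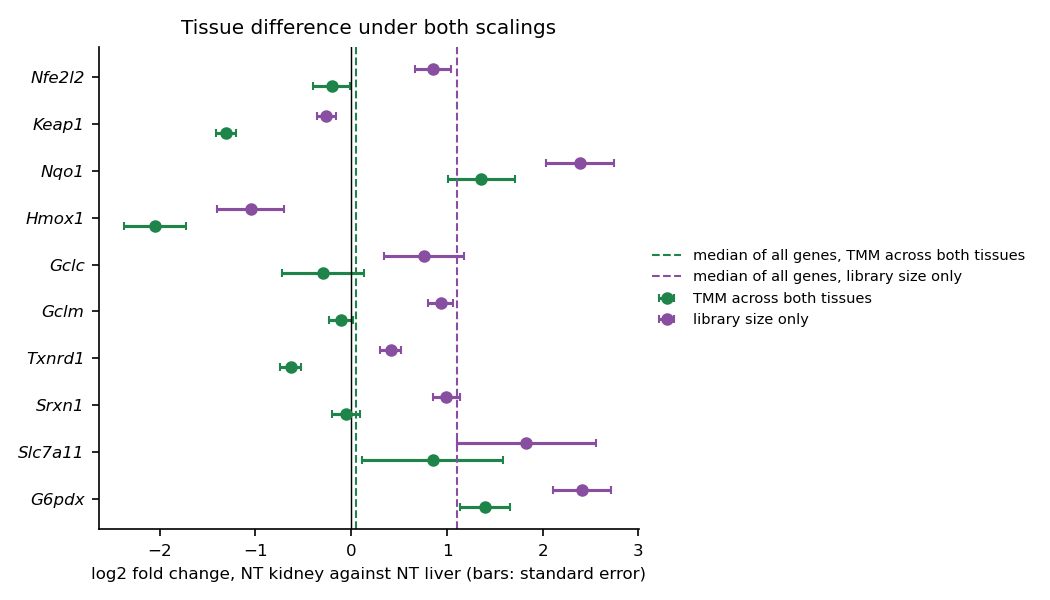
Log2 fold change of NT kidney against NT liver (x axis, bars for the standard error) with TMM over both tissues (green) and with library size alone (purple), with dashed lines for the median of all genes (0.05 and 1.10). Nqo1 and G6pdx lie to the right of the dashed line and Hmox1, Keap1 and Txnrd1 to the left of it under both scalings.

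The other members did not pass that test with TMM. *Nfe2l2* was −0.21 ± 0.19 and *Gclc* −0.30 ± 0.43 on the log2 scale, and without NT replicate 4 of both organs they were −0.45 (adjusted p = 0.00236) and −1.06 (adjusted p = 0.00237). For *Nfe2l2* the adjusted p ranged from 0.000454 to 0.854 over the alternatives, and for *Gclc* from 0.00237 to 0.925. With both of these libraries left out, 7 of the 10 members were called. The number of all genes called, 9489 to 13094, is a range over all alternatives and not the value in this fit. This count of members, too, is therefore a description only. *Gclm* (−0.11) and *Srxn1* (−0.06) were within 0.2 of 0 and turned above 0 with upper-quartile scaling and with library size alone, and *Slc7a11* was 0.85 ± 0.74, but 0.23 without kidney NT replicate 4.

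Genes around the pathway were taken from a list of 83 regulators, enzymes and transporters, of which 79 were tested in kidney and 77 in liver. In kidney 0 passed by edgeR, 21 had an unadjusted p under 0.05 (17 higher, against 17.1% of all genes, and 4 lower, against 14.8%), and 7 of 79 were free of overlap between the groups, against 17.2% of all genes. DESeq2 called 7 of the 77 it tested, all higher in shFos kidneys (*Cat*, *Cul3*, *Idh1*, *Me1*, *Prdx3*, *Slc40a1* and *Tkt*), a share below the 19.6% of all genes. Without shFos replicate 1, edgeR called 15 of 79 (12 higher) and 27.5% of all genes, and without NT replicate 4 it called 0. In liver 0 passed by either tool, 7 had an unadjusted p under 0.05 (2 higher, against 3.58% of all genes, and 5 lower, against 3.16%), and 3 of 77 were free of overlap, against 4.31% of all genes.

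The partners of Nrf2 came first in this list. *Cul3*, the scaffold of the ligase that degrades Nrf2, was at 122, 104, 120 and 125 CPM in NT kidneys and at 125, 159, 174 and 168 CPM in shFos kidneys. All 4 shFos kidneys lay above every NT kidney, although NT replicate 4 and shFos replicate 1 were equal after rounding (1936 and 1946 counts), and the log2 fold change was 0.41 ± 0.12 (SE, adjusted p = 0.0702 by edgeR and 0.0183 by DESeq2, range over the alternatives 0.00794 to 0.247). In liver *Cul3* was 0.01 ± 0.09. *Mafk*, a small MAF partner of Nrf2, had 45.9, 58.5, 46.9 and 59.9 CPM in NT and 50.3, 41.2, 34.7 and 41.1 CPM in shFos kidneys, and 28.4, 31, 20.4 and 25.2 CPM in NT and 21.8, 23.3, 17 and 18.8 CPM in shFos livers. Its fold change was −0.34 ± 0.14 in kidney (SE, adjusted p = 0.131) and −0.37 ± 0.15 in liver (adjusted p = 0.731), with overlap in both.

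For the other partners named here the groups did not separate in a test. *Maff* was −0.53 ± 0.24 in kidney (−0.33 without NT replicate 4) and −0.39 ± 0.21 in liver (log2, SE), and *Mafg* −0.19 ± 0.13 and 0.22 ± 0.12. *Bach1*, the repressor that competes with Nrf2 at *Hmox1*, was 0.08 ± 0.14 and −0.17 ± 0.11, and *Sqstm1*, which draws KEAP1 into autophagy, 0.03 ± 0.13 and 0.19 ± 0.19, the latter 0.03 without NT replicate 4. Adjusted p-values by edgeR were 0.17 or higher for all 4 genes in both organs. Of the 14 regulators tested in kidney, 3 were free of overlap, near the share of 17.2% among all genes, so the count is no result about the regulators. They were *Cul3* and, on the lower side, *Rbx1* and *Dpp3*. *Rbx1*, the RING subunit of the CUL3 ligase, had 80.6 to 86.8 CPM in NT and 74.7 to 79 CPM in shFos kidneys. *Dpp3*, which binds KEAP1, had 51.9 to 54.5 and 45.5 to 51.4 CPM. The adjusted p was 0.26 for *Rbx1* and 0.177 for *Dpp3*, both singled out after their values were seen.

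Of the genes named by the smallest p, *Slc40a1*, the iron exporter ferroportin, had 82.4, 73.7, 75.9 and 53.8 CPM in NT kidneys and 86.2, 96.4, 108 and 117 CPM in shFos kidneys, without overlap. Its log2 fold change was 0.51 ± 0.15 (SE, adjusted p = 0.0698 by edgeR and 0.0151 by DESeq2, range over the alternatives 0.0151 to 0.234). *Prdx3*, the mitochondrial peroxiredoxin, was 0.41 ± 0.13 (adjusted p = 0.0789 by edgeR and 0.0248 by DESeq2, range 0.02 to 0.263). On the lower side, besides *Mafk*, were *Gstm3*, a glutathione transferase, at −1.13 ± 0.39 (0.954 ± 0.204 CPM in NT against 0.426 ± 0.205 CPM in shFos, SD, n = 4) and *Txnip*, the thioredoxin inhibitor, at −0.36 ± 0.15. *Gstm3* was so low in kidney that its fold rests on few counts.

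In liver the same rule named *Ephx1*, the microsomal epoxide hydrolase, at 251, 288, 360 and 220 CPM in NT and 502, 416, 450 and 372 CPM in shFos livers. The groups did not overlap, and the log2 fold change was 0.64 ± 0.18 (SE, adjusted p = 0.714). *Sod3* (extracellular superoxide dismutase) and *Gpx1* (the cytosolic glutathione peroxidase) were 0.37 ± 0.13 and 0.56 ± 0.26, and *Gpx1* was 0.34 without NT replicate 4. *Glrx* (glutaredoxin) and *Gstm2* (a glutathione transferase) were −0.67 ± 0.23 and −0.50 ± 0.18. *Gpx3*, the secreted glutathione peroxidase, was −1.50 ± 0.55, but −0.73 without NT replicate 4, which held 163 CPM against 22.5 to 68.2 CPM in the other NT livers.

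A group of 5 genes of the pentose phosphate pathway and of NADPH supply (*Pgd*, *Taldo1*, *Tkt*, *Me1* and *Idh1*), of which *Tkt* and *Taldo1* act in the branch that forms no NADPH, was singled out after its values were seen. In kidney the fold change was above 0 in 5 of 5 with a median of 0.66 on the log2 scale, and above 0 in 3 of 5 with library size alone and in 4 of 5 without NT replicate 4. *Me1* (malic enzyme) had 309, 272, 324 and 149 CPM in NT and 360, 501, 391 and 444 CPM in shFos kidneys, without overlap (0.69 ± 0.23, adjusted p = 0.0878). *Idh1* (cytosolic isocitrate dehydrogenase) was 0.79 ± 0.29 (adjusted p = 0.105) and *Tkt* (transketolase) 0.66 ± 0.23 (adjusted p = 0.0923), while *Pgd* and *Taldo1* of the pentose phosphate pathway were 0.08 and below 0.01, near *G6pdx*. NT replicate 4 was the lowest library for *Me1*, *Idh1* and *Tkt*, and without it they were 0.49, 0.59 and 0.59. Some cell type markers moved in the same comparison, in which 31.9% of all genes had an unadjusted p under 0.05. All 6 proximal tubule markers had a fold change above 0 in shFos kidneys, with a median of 0.67 on the log2 scale (0.43 without NT replicate 4), 3 of them at an unadjusted p under 0.05 and 0 after adjustment, and their sum was 5070 to 15800 CPM in NT and 10700 to 36100 CPM in shFos kidneys. Of these *Lrp2*, the endocytic receptor megalin, was 0.78 ± 0.24 (SE, adjusted p = 0.0781 by edgeR), without overlap. Both podocyte markers were above 0 as well (median 0.98, each at an unadjusted p under 0.05), with sums of 79.8 to 156 and 116 to 303 CPM. The other lists did not rise with all libraries in the fit. Above and below 0 were 2 and 2 distal nephron, 2 and 7 macrophage (median −0.32) and 2 and 4 hepatocyte markers. For cholangiocyte markers these counts were 0 and 4 (median −0.44), or 2 and 2 without NT replicate 4. Of the 6 neutrophil markers 2 were tested, with counts of 0 and 2 (median −0.97). Without NT replicate 4 these turned to 2 and 0 (median 0.48). The part of cell type markers in the values of *Me1*, *Idh1* and *Tkt* was not tested.

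Among the 8 libraries of a tissue, after the group means were taken out, the genes most like *Nqo1* in kidney were *Apoe* (Pearson's r = 0.993) and *Rpl18* (0.992), and the most like *Hmox1* were *Tnfaip1* (0.981) and *Arhgap28* (0.978). In liver they were *Terf2* (0.995) and *Zfp941* (0.988) for *Nqo1*, and *Pitpnm1* (0.975) and *Emp3* (0.97) for *Hmox1*. The members were left out of this search, and none of the genes it named was on the list of 83 around the pathway. Between members the correlations were mixed, with 9 of 36 pairs over 0.5 and 3 under −0.5 in kidney (median 0.169), and 7 and 7 in liver (median −0.132). In liver *Nfe2l2* and *Gclc* had r = 0.895 (0.623 without NT replicate 4), and *Hmox1* and *G6pdx* 0.856. These values describe 8 libraries that share depth and tissue make-up.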

How the data were processed

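RNA-seq libraries of kidney and liver, 4 for each tissue and treatment, were analysed from the count tables the authors deposited. The authors trimmed reads with Trimmomatic 0.39, aligned them to mm10 with HISAT2 2.2.1 and counted them per gene with HTSeq 0.12.4 without strand, so overlapping and antisense genes are uncertain. The tables hold raw counts for 24984 genes, and 5 summary lines were left out. GENCODE M21 gave positions and exon lengths. The main test was the robust quasi-likelihood test of edgeR 4.0.16 (R 4.3.3) on 1 tissue at a time after filterByExpr and TMM, adjusted by Benjamini-Hochberg, and a gene was called when its adjusted p was under 0.05. The tissue comparison and the interaction came from one fit of 16 libraries. CPM were TMM-normalised within tissue, and correlations used log2 CPM with a prior count of 2. For single values, an exact permutation test, two-sided, ran over all 70 assignments. Alternatives were DESeq2 1.42.0, upper-quartile scaling, other filters, a replicate block, a GC correction, one fit of all libraries, the newer quasi-likelihood dispersion and each library left out. Added after the data were seen were library size alone as scaling and both NT replicates 4 left out. The scripts were tested on simulated data.

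The members and lists were chosen with earlier results of these data known. Genes named were *Fos*, the members, *Maff*, *Mafg*, *Mafk*, *Bach1*, *Cul3* and *Sqstm1*. With them went the 3 genes of the list of 83 with the smallest p in each direction and tissue. For *Nqo1* and *Hmox1*, the 2 most alike genes outside the members were taken in each tissue. Others are named after their values were seen. Libraries of the same group differed by more than sampling noise (smallest chi-square per degree of freedom 7.17). Same-numbered NT kidney and NT liver libraries deviated together (r = 0.123, 0.368, 0.401 and 0.36), so the number may pair them, but the labels do not name the animal. NT kidney 1 was closer to NT liver 3 (r = 0.195) than to its own number. In shFos libraries the same-number r was 0.0691, 0.156, 0.0409 and 0.104. The values printed for the NT tissue comparison come from the fit without pairing. The fit with the replicate block called 5 members there as well.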

Additional observations from a re-analysis of the deposited data

Results flagged for a closer look

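In 3 of 44 groups of 4 libraries, 1 library lay far from the other 3 by Dixon's criterion, where chance alone gives about 2.2. *Gclc* in kidney NT replicate 4 was 827 CPM, with the other NT kidneys at 324 to 351 CPM. *Nqo1* in the same library was 192 CPM, with the others at 54.3 to 73.6 CPM. *Hmox1* in liver shFos replicate 2 was 58.7 CPM, with the other shFos livers at 27.4 to 29.5 CPM, and that liver also had the highest macrophage marker sum of its group (846 CPM, others 457 to 684 CPM). The causes were not tested.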

How the results depend on the processing

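No member had an adjusted p under 0.05 in kidney, in liver or in the interaction under any alternative run. The number of genes called in kidney, 0 by edgeR, was 994 in one fit of all 16 libraries, 2697 with DESeq2 and 3 with no filter on low counts, and 0 to 4126 with each library left out (4126 without shFos replicate 1, 3 without NT replicate 4). DESeq2 called 37 genes in liver and 344 for the interaction. The edgeR count for the interaction was 0, and 0 to 1246 with libraries left out (1246 without kidney shFos replicate 1). In the NT tissue comparison 5 members were called, 5 to 6 with 1 library left out, 7 without both NT replicates 4 and 9 with library size alone. The number of all genes called there was 9976, and 9489 to 13094 over the alternatives. The exact p of *Fos* in kidney was 0.0286 or 0.0571 with a library left out.

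Differences of treatment near 0 changed sign (log2). In kidney these were *Keap1* (0.18 with the GC correction, 0.177 with GC correction and replicate block), *Gclm* (−0.00265 and −0.0103), *Bach1* (−0.0064 with the GC correction), *Txnrd1*, *G6pdx* and *Sqstm1* (−0.00123, −0.00441 and −0.0289 with upper-quartile scaling, and −0.0445, −0.0444 and −0.0708 with library size alone), and *Srxn1* and *Bach1* (−0.00607 and −0.0206 with library size alone). With libraries left out, *Nqo1* ranged from −0.739 to 0.102, *Gclc* from −0.457 to 0.133, *G6pdx* from −0.0367 to 0.15, *Bach1* from −0.0115 to 0.208 and *Sqstm1* from −0.047 to 0.122 in kidney. In liver *Nfe2l2* ranged from −0.0953 to 0.267, *Nqo1* from −0.0344 to 0.18, *Gclm* from −0.0218 to 0.0767, *Txnrd1* from −0.0965 to 0.0319, *G6pdx* from −0.472 to 0.0191 and *Cul3* from −0.0344 to 0.0493. For the interaction *Nqo1* ranged from −0.779 to 0.0492, and *Gclc* was 0.0661 without both NT replicates 4.

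In the NT tissue comparison, library size alone turned *Nfe2l2* (0.854), *Gclc* (0.76), *Gclm* (0.937), *Txnrd1* (0.414) and *Srxn1* (0.993). *Gclm* was 0.0526 and *Srxn1* 0.102 with upper-quartile scaling, *Gclm* 0.0596 with the GC correction and 0.0558 with the block as well. With libraries left out *Gclc* ranged from −0.747 to 0.0535 and *Srxn1* from −0.137 to 0.00293. The causes were not tested, except that the scalings set the zero point.

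The replicate numbers did not pair NT with shFos libraries (same-number correlations −0.173, −0.00347, 0.116 and −0.145 in kidney and −0.0498, 0.0395, −0.0952 and −0.261 in liver). With the replicate block edgeR called 0 genes in kidney, in liver and for the interaction. Not every library correlated best with its own number. The block changed no other call. *Slc7a11* fell under the filter on low counts within each tissue.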
